A study of Rattus norvegicus with 17 samples.

Results

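A set of 10 named genes was followed across the meibomian gland (MG) of 17 rats as markers of stem and progenitor cells of glands and hair follicles, namely Lrig1, Lgr5, Lgr6, Krt15, Sox9, Prdm1, Gata6, Axin2, Cd34 and Tp63. They were chosen by name as known markers, with earlier results of these data known, and 9 of the 10 were matched among the 17251 genes listed. Krt15 was not analysed here. The MG is the oil gland of the eyelid margin. Whole dissected glands of female rats 10 to 12 weeks old were sequenced in 4 groups, which were 4 unexposed wild-type rats (Control WT), 3 wild-type rats exposed to UVB (UVB WT), 5 unexposed P1.hMR transgenic rats (Control P1.hMR) and 5 P1.hMR rats exposed to UVB (UVB P1.hMR). P1.hMR rats overexpress the human NR3C2 gene, which encodes the mineralocorticoid receptor (MR), from its own proximal P1 promoter, so the transgene is not limited to the gland. The UVB groups had the upper eyelids shaved and irradiated daily for 5 days. Whether the unexposed rats were shaved is not given in the sources used here, so in these comparisons the effects of shaving and of UVB cannot be told apart.

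An MG is built like a sebaceous gland without a hair. Flat basal cells at the rim of each acinus divide and give rise to meibocytes, which fill with lipid, burst and release meibum through a keratinized duct. In skin, cells that can renew glands and follicles are recognized by the place they occupy and the genes they express. LRIG1, LGR6, GATA6 and PRDM1 mark the isthmus, the sebaceous gland and its duct, whereas LGR5, SOX9, CD34 and keratin 15 mark the bulge and lower follicle. AXIN2 is a feedback inhibitor and read-out of Wnt/beta-catenin signalling, the pathway that LGR receptors amplify when they bind R-spondins. TP63 is the transcription factor that maintains basal cells of all stratified epithelia.

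Values are TPM, the share of a library's transcripts scaled per transcript length, so the levels of different genes can be set side by side. The human NR3C2 transgene was at 0 in every WT rat and at 5.31 to 9.31 TPM in P1.hMR rats, which matched the labels. The tissue label was borne out by 8 meibocyte genes (among them Awat2, Elovl3 and Pparg), whose summed level was between 16600 and 22300 TPM in every rat. The glands also held neighbouring tissue. Summed levels reached 3400 TPM for 6 skeletal muscle genes and 1150 TPM for 7 inner root sheath genes of the hair follicle. For 2 genes listed for conjunctiva, Krt4 and Krt13, the sum reached 6890 TPM. Its mean was 4780 TPM in Control WT, 5490 in UVB WT, 4870 in Control P1.hMR and 5830 in UVB P1.hMR rats. How much of each marker's level came from neighbouring tissue was not tested. In such bulk tissue fewer cells of a type and less RNA per cell cannot be told apart.

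Promoter sequences were read for the genes whose change the comparisons below turn on. RefSeq promoters (build GRCr8, from 250 bases before to 50 bases after the annotated start, 300 bases in all) were matched for 7 members. Those of Gata6 and Lrig1 are shown because these genes gave the UVB calls among the members, and that of Axin2 because it is a Wnt target that moved the opposite way. Gata6 lies at chr18:2460659-2460958 on the plus strand, Lrig1 at chr4:128788170-128788469 on the minus strand and Axin2 at chr10:94398535-94398834 on the plus strand, each written 5′ to 3′ on its own strand. The TCF/LEF motif was searched on both strands as CTTTGAT or CTTTGTT, and capitals mark a match to it.
Gata6: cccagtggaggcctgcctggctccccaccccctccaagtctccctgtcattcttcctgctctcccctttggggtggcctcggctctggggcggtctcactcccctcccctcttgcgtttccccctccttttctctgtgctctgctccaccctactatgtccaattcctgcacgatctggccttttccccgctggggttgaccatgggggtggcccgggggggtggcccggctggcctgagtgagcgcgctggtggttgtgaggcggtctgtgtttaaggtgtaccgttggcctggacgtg
Lrig1: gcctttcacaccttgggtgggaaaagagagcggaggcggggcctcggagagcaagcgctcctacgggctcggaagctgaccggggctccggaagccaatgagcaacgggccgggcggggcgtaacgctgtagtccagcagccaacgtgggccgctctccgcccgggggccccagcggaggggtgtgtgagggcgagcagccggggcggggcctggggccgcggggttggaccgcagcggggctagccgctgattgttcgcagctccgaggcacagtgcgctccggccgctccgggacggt
Axin2: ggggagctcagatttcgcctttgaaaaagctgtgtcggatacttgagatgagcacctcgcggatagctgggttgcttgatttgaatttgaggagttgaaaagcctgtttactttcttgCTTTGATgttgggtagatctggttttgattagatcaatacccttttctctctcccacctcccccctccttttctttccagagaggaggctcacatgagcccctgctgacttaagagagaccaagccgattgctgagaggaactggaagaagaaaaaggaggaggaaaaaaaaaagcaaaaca
Among the 7 member promoters, 1 held the motif, in Axin2, at positions 119 to 125 of the window on the plus strand. The motif was found in 9.39% of 33469 RefSeq promoters of the same length. The promoters also differed in composition, with 33 CpG dinucleotides in Lrig1, 12 in Gata6 and 5 in Axin2 against a median of 7. These matches describe the letters of the windows only.

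In unexposed glands the 9 genes spanned from about 2 to over 80 TPM. In Control WT rats Tp63 was highest (80.6 ± 7.39 TPM, mean ± SD, n = 4), followed by Lrig1 (44.0 ± 3.96), Cd34 (24.7 ± 1.81), Sox9 (22.6 ± 2.66), Prdm1 (17.2 ± 1.99), Gata6 (15.0 ± 3.78), Axin2 (8.29 ± 0.624), Lgr6 (2.96 ± 0.596) and Lgr5 (2.25 ± 0.238). The order was the same in Control P1.hMR rats. Cd34 and Sox9, Prdm1 and Gata6, and Lgr6 and Lgr5 were neighbours whose ranges overlapped in both unexposed groups, and the other neighbours did not overlap. After UVB the order shifted around Gata6, Axin2, Cd34 and Lrig1. Axin2 lay below Gata6 in both unexposed groups and above it in both UVB groups, without overlap. Lrig1 lay above Cd34 without overlap in unexposed glands, and the ranges of these genes overlapped in both UVB groups.

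**Figure D1:**
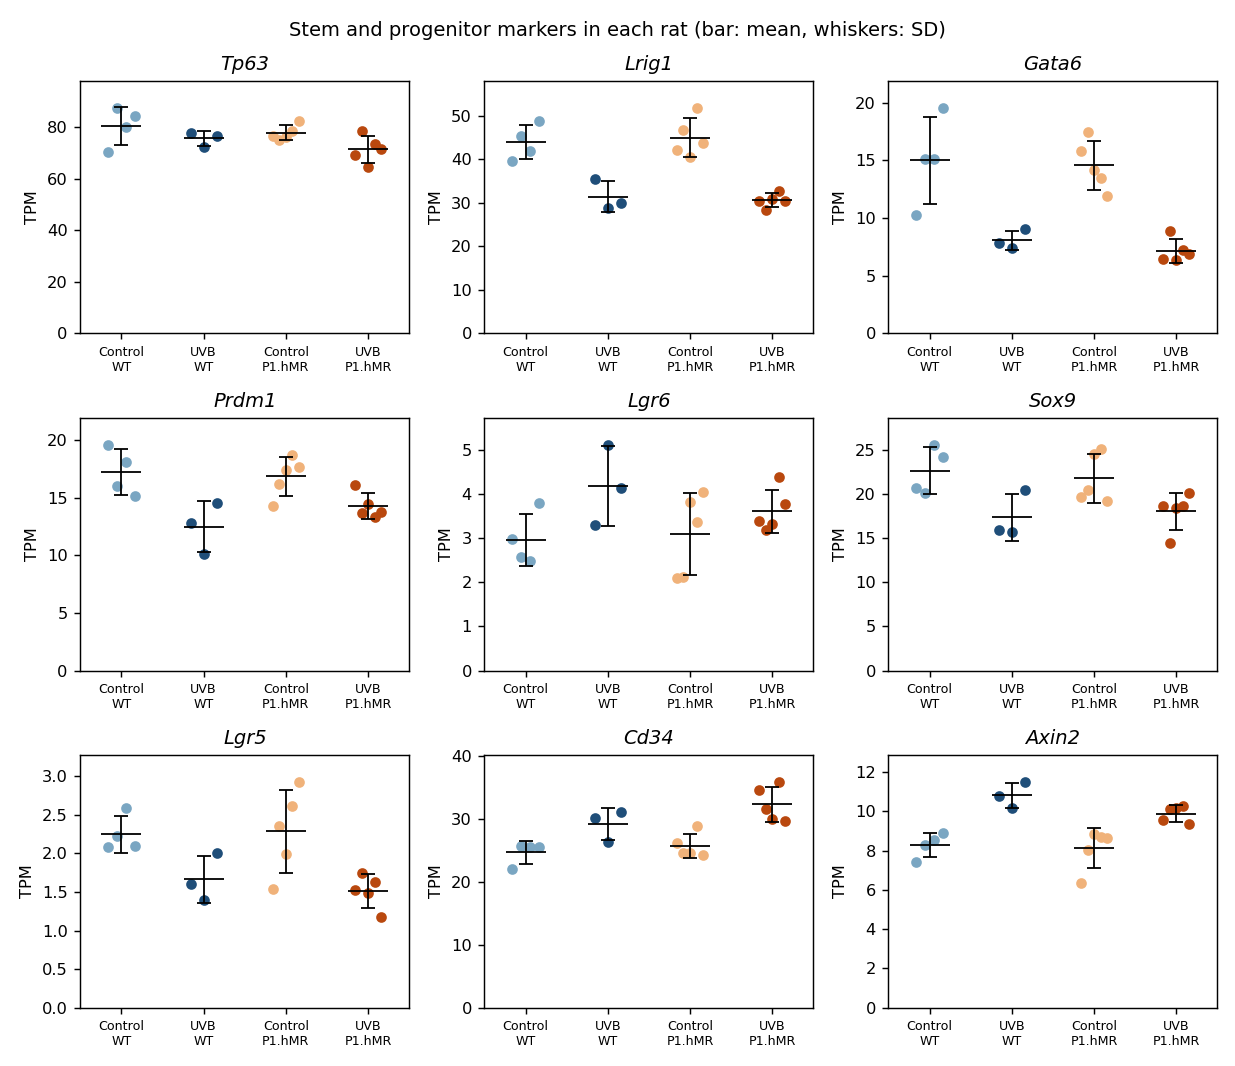
Level of each of the 9 listed genes in every rat, in TPM on a linear axis from 0, with 1 point per rat (n = 4 Control WT, 3 UVB WT, 5 Control P1.hMR, 5 UVB P1.hMR), a bar at the group mean and whiskers of 1 SD. Gata6 and Lrig1 lie lower, and Axin2 and Cd34 higher, in every UVB rat than in any unexposed rat of the same genotype.

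The UVB calls among the markers were Gata6, lower in both genotypes, and Lrig1, lower in P1.hMR rats, and both genes belong to the isthmus and duct. The groups were compared on log2(TPM + 1) with limma over 13105 genes, and a gene was called when its Benjamini-Hochberg adjusted p was below 0.05 and its log2 fold change was at least 0.5 in size. All 9 members passed the filter on low levels. In WT rats 1 of the 9 was called lower (Gata6) and 0 higher, where 3.98% of all genes tested were called lower and 3.92% higher. In P1.hMR rats 2 of the 9 were called lower (Gata6 and Lrig1) and 0 higher, against 5.71% and 5.05% of all genes. By the adjusted p alone, 4 of the 9 were lower and 1 higher among WT rats, where 10.3% of all genes were lower and 11.2% higher. Among P1.hMR rats 3 were lower and 2 higher, against 20.6% and 18.5%. The UVB and unexposed rats did not overlap for 6 of the 9 genes among WT rats and 4 of the 9 among P1.hMR rats, and for 26.6% and 27.2% of all genes. The median log2 fold change of the 9 genes was -0.29 for WT and -0.22 for P1.hMR rats, beside 0.01 and -0.02 over all genes tested.

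Gata6 encodes a zinc finger transcription factor of the upper sebaceous duct. It stood at 10.29, 15.11, 15.09 and 19.54 TPM in Control WT and at 7.83, 7.42 and 9.02 TPM in the UVB WT rats. In Control P1.hMR rats it was 15.82, 17.46, 14.15, 13.44 and 11.94 TPM, and in UVB P1.hMR rats 6.42, 8.89, 6.38, 7.24 and 6.86 TPM. The UVB rats of each genotype were all below the unexposed rats of that genotype. The mean TPM fell by 46.1% after UVB among WT rats, and it fell by 50.8% among P1.hMR rats. On the log2(TPM + 1) scale, where the added constant makes the change smaller, the fitted log2 fold change was -0.79 ± 0.16 for WT (SE, adjusted p = 0.00319) and -0.93 ± 0.13 for P1.hMR rats (adjusted p = 7.01e-05).

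Lrig1 encodes a membrane protein that restrains ErbB receptor signalling and keeps epithelial stem cells quiescent. Its levels were 39.74, 45.41, 41.97 and 48.78 TPM in Control WT rats and 35.61, 28.78 and 30.06 TPM in UVB WT rats. In P1.hMR rats they were 42.1, 46.86, 40.59, 51.82 and 43.68 TPM without UVB and 30.56, 28.32, 30.93, 32.76 and 30.43 TPM with it. Again no UVB rat reached the lowest unexposed rat of its genotype. Lrig1 was called lower in P1.hMR rats (log2 fold change -0.54 ± 0.07, adjusted p = 4.29e-05). In WT rats it passed the adjusted p but not the fold threshold (-0.47 ± 0.09, adjusted p = 0.00187), and the difference between these responses was -0.07 (95% interval -0.31 to 0.18). Both values lie close to the threshold of 0.5. Without Control P1.hMR rat 4, the highest of its group, the value in P1.hMR rats was -0.49 and the call was lost, and without Control WT rat 1 or UVB WT rat 1 the WT value became -0.52 or -0.56 and was called.

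Prdm1 encodes BLIMP1, a transcriptional repressor found in sebaceous and terminally differentiating epithelial cells. It was 19.55, 16.02, 18.07 and 15.14 TPM in Control WT rats and 12.78, 10.14 and 14.54 TPM in UVB WT rats, with no overlap. In P1.hMR rats its range was 14.3 to 18.73 TPM (median 17.4) without UVB and 13.33 to 16.11 TPM (median 13.7) with UVB, and these overlapped. The log2 fold change was -0.44 ± 0.11 for WT (adjusted p = 0.0116, under the fold threshold) and -0.22 ± 0.09 for P1.hMR rats (adjusted p = 0.0674).

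For Lgr6, the R-spondin receptor of the isthmus and sebaceous gland, the UVB values lay above 0. Its levels were 2.98, 2.58, 2.48 and 3.79 TPM in Control WT, 3.3, 5.1 and 4.14 TPM in UVB WT, 2.1, 2.11, 3.81, 3.37 and 4.04 TPM in Control P1.hMR and 3.38, 3.18, 3.31, 4.39 and 3.76 TPM in UVB P1.hMR rats. The groups overlapped in both genotypes. The log2 fold changes of 0.39 ± 0.18 for WT (adjusted p = 0.135) and 0.20 ± 0.15 for P1.hMR rats (adjusted p = 0.31) did not pass the test, and their 95% intervals ran from 0.01 to 0.76 and from -0.12 to 0.51.

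The isthmus and duct list of 7 genes, all tested, held 3 called lower among WT and 4 among P1.hMR rats, with 0 called higher. Over all genes tested 3.98% and 5.71% were called lower. The list includes the markers Lrig1, Lgr6, Gata6 and Prdm1, so its calls of Gata6 and Lrig1 are those given above. The genes called beside them were Cst6 and Plet1. Cst6, which encodes the cystatin M/E protease inhibitor of cornifying epithelium, averaged 3160 ± 660 TPM in Control WT and 1310 ± 402 TPM in UVB WT rats (log2 fold change -1.29 ± 0.19, adjusted p = 0.000385). In P1.hMR rats the means were 3410 ± 476 and 1170 ± 52.5 TPM (-1.53 ± 0.16, adjusted p = 4.72e-06). Plet1, a surface protein of the follicle isthmus and sebaceous duct, changed by -0.58 ± 0.16 for WT (adjusted p = 0.0144) and by -0.99 ± 0.13 for P1.hMR rats (adjusted p = 2.73e-05). Krt79, a keratin of the duct lining, gave 0.14 ± 0.06 and -0.04 ± 0.05 (adjusted p = 0.125 and 0.607) at means of 1530 to 1710 TPM. The list median was -0.47 for WT and -0.54 for P1.hMR rats.

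**Figure D2:**
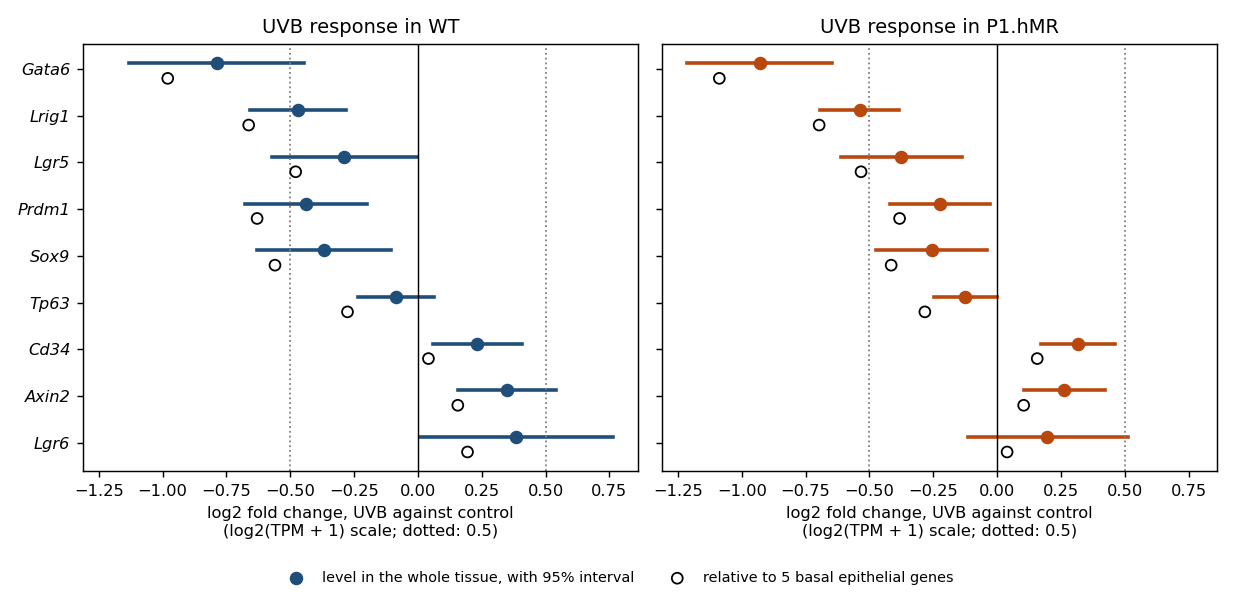
UVB log2 fold change of each gene in WT (left) and P1.hMR rats (right), on the log2(TPM + 1) scale. Filled circles give the change in the whole tissue with its 95% interval, open circles the change relative to the mean of 5 basal epithelial genes, and dotted lines the fold threshold of 0.5. Gata6 lies farthest below 0 in both genotypes, and on both measures 6 genes lie below 0 and 3 above.

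Of the bulge and lower follicle markers, none was called in either genotype. Lgr5, the receptor that marks cycling stem cells of the lower follicle, stood at 2.08, 2.23, 2.59 and 2.09 TPM in Control WT rats and at 1.6, 1.4 and 2.0 TPM in UVB WT rats. It was 1.54, 2.36, 1.99, 2.62 and 2.92 TPM in Control P1.hMR and 1.53, 1.75, 1.49, 1.63 and 1.17 TPM in UVB P1.hMR rats. The WT groups did not overlap, and in P1.hMR rats the lowest unexposed rat lay within the UVB range. The log2 fold change was -0.29 ± 0.14 for WT (adjusted p = 0.138) and -0.38 ± 0.11 for P1.hMR rats (adjusted p = 0.0141, under the fold threshold). At these low levels the added constant of 1 TPM weighs on the result. With a constant of 0.1 the P1.hMR value was -0.54 (adjusted p = 0.0148), which was called.

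Sox9, a transcription factor of the outer root sheath and bulge, was 20.65, 20.13, 25.54 and 24.24 TPM in Control WT and 15.92, 15.67 and 20.47 TPM in UVB WT rats. In P1.hMR rats it ranged from 19.22 to 25.07 TPM (median 20.4) without UVB and from 14.49 to 20.14 TPM (median 18.6) with UVB. The ranges overlapped in both genotypes. The log2 fold changes were -0.37 ± 0.12 (adjusted p = 0.0445, under the fold threshold) and -0.26 ± 0.10 (adjusted p = 0.0594).

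Cd34, a sialomucin of bulge cells in rodent skin that endothelial and some stromal cells also carry, was higher after UVB. It was 21.98, 25.7, 25.57 and 25.55 TPM in Control WT and 30.2, 26.37 and 31.05 TPM in UVB WT rats. In P1.hMR rats it was 26.19, 24.61, 24.66, 28.86 and 24.31 TPM without UVB and 34.58, 31.56, 29.92, 35.81 and 29.62 TPM with UVB, and neither genotype showed overlap. The log2 fold change was 0.23 ± 0.08 for WT (adjusted p = 0.0543) and 0.32 ± 0.07 for P1.hMR rats (adjusted p = 0.00175, under the fold threshold). Endothelial markers were split. Of 6 tested 1 was called higher in each genotype (Vwf), beside 3.92% and 5.05% of all genes. By the adjusted p alone 4 were higher and 0 lower among WT rats, and 3 higher and 1 lower among P1.hMR rats. The shares of all genes were 11.2% higher and 10.3% lower for WT, and 18.5% and 20.6% for P1.hMR rats. The endothelial marker that went the opposite way was Emcn. It gave -0.282 ± 0.11 for WT (adjusted p = 0.0816) and -0.305 ± 0.09 for P1.hMR rats (adjusted p = 0.0153). The summed level of the 6 markers was 51.7 to 62.8 TPM in Control WT and 64.4 to 72.8 TPM in UVB WT rats, and 55.8 to 64.4 and 63.6 to 71.2 TPM in the P1.hMR groups. None of the 6 was at 0 throughout a group. With the endothelial level as a covariate, an alternative chosen after seeing the data, the Cd34 value was 0.05 for WT and 0.19 for P1.hMR rats (adjusted p = 0.83 and 0.103). In the same fit the WT value was -0.73 for Lrig1 and -0.67 for Sox9. The endothelial level was itself higher on average after UVB, so this covariate is partly a stand-in for UVB. The fit therefore cannot separate endothelial content from UVB. Fibroblast genes were split as well. Of 7 tested, 3 were called higher in each genotype (Pdgfra, Dcn and Lum), beside 3.92% and 5.05% of all genes. Pi16 was called lower in both genotypes and Col1a1 in P1.hMR rats. Which cells carried the Cd34 change was not tested.

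The list of bulge and outer root sheath genes, with 10 genes tested, gave 0 calls in either genotype. Of all genes tested 3.98% and 5.71% were called lower, and 3.92% and 5.05% higher. By the adjusted p alone 2 were lower and 0 higher in WT, and 4 lower and 1 higher in P1.hMR rats. The shares of all genes were 10.3% lower and 11.2% higher in WT, and 20.6% and 18.5% in P1.hMR rats. Beside the members, Tcf7l1, a Wnt pathway repressor of bulge cells, gave -0.24 ± 0.08 for WT and -0.32 ± 0.06 for P1.hMR rats (adjusted p = 0.0374 and 0.000841). Nfatc1, a transcription factor of quiescent bulge cells, gave -0.24 ± 0.10 and -0.41 ± 0.08 (adjusted p = 0.0855 and 0.000848). The list median was -0.23 for WT and -0.15 for P1.hMR rats.

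Hair follicle genes were also lower after UVB. All 7 inner root sheath genes tested (Krt25, Krt27, Krt28, Krt71, Krt72, Krt73 and Tchh) were called lower in both genotypes, beside 3.98% and 5.71% of all genes. Their summed level was 638 to 1020 TPM in Control WT and 272 to 785 TPM in UVB WT rats, and 671 to 1150 and 380 to 639 TPM in the P1.hMR groups, and none was at 0. Of 8 hair shaft keratins 4 were called lower for WT and 2 for P1.hMR rats. UVB WT rat 3, whose inner root sheath level of 785 TPM lay inside the Control WT range, also had the highest level of the UVB WT rats for 6 of the 9 markers (Lgr5, Sox9, Prdm1, Gata6, Axin2 and Cd34). For Axin2 and Cd34, which were higher after UVB, that level was the farthest from the Control WT rats. Without that rat the WT log2 fold change was -0.38 for Lgr5 (adjusted p = 0.0969), -0.49 for Sox9 (adjusted p = 0.0195) and -0.55 for Prdm1, which was then called (adjusted p = 0.00621). With the inner root sheath level as a covariate, also chosen after seeing the data, the values in WT and P1.hMR rats were -0.03 and -0.17 for Lgr5, -0.23 and -0.14 for Sox9 and -0.17 and -0.01 for Prdm1, with adjusted p between 0.434 and 0.98. With the same covariate the values in WT and P1.hMR rats were -0.84 and -0.97 for Gata6 and -0.47 and -0.54 for Lrig1, with adjusted p of at most 0.0486. With hair shaft keratins as the covariate Lrig1 gave -0.49 in P1.hMR rats (adjusted p = 0.000502), under the fold threshold, and Gata6 was called in both genotypes. The inner root sheath genes were themselves lower after UVB, so a covariate made of them takes up part of any UVB change. These fits therefore cannot separate hair follicle content from UVB, and the cause of the marker changes was not tested.

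**Figure D3:**
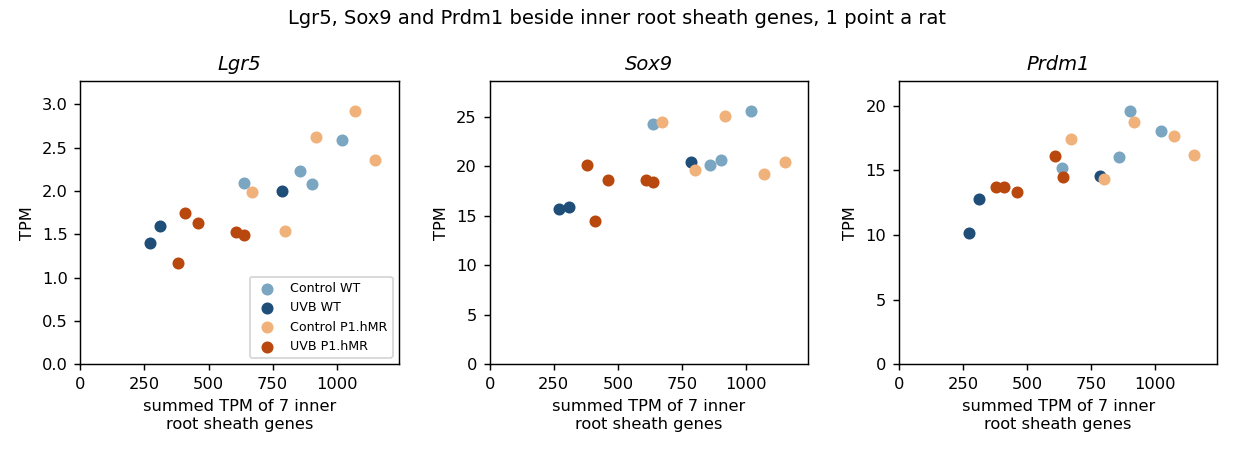
Level of Lgr5, Sox9 and Prdm1 in TPM against the summed TPM of 7 inner root sheath genes, with 1 point per rat coloured by group and both axes linear from 0. Of the 8 UVB rats, UVB WT rat 3 has the highest inner root sheath level, 785 TPM, and the highest Lgr5 and Sox9.

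Axin2 was higher after UVB in both genotypes, opposite to most of the set. It was 7.43, 8.27, 8.55 and 8.89 TPM in Control WT and 10.76, 10.18 and 11.47 TPM in UVB WT rats. In P1.hMR rats it was 6.37, 8.02, 8.83, 8.71 and 8.66 TPM without UVB and 9.53, 10.09, 10.17, 10.27 and 9.36 TPM with it. No UVB rat fell within the unexposed range of its genotype. The log2 fold changes, 0.35 ± 0.09 for WT (adjusted p = 0.0126) and 0.26 ± 0.07 for P1.hMR rats (adjusted p = 0.0109), passed the adjusted p but not the fold threshold. Without UVB WT rat 3 the WT value was 0.31 (adjusted p = 0.0536). With the endothelial covariate the values in WT and P1.hMR rats were 0.19 and 0.16 (adjusted p = 0.362 and 0.242). That covariate was itself higher on average after UVB, so this fit cannot separate endothelial content from UVB.

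The list of Wnt feedback and target genes, to which Axin2 belongs, was split in direction. Of 9 tested, 2 were called lower for WT and 3 for P1.hMR rats, and 0 were called higher. Of all genes tested 3.98% and 5.71% were called lower, and 3.92% and 5.05% higher. Apcdd1, a membrane-bound Wnt inhibitor, averaged 95.9 ± 20.7 TPM in Control WT and 53.3 ± 2.69 TPM in UVB WT rats (-0.81 ± 0.13, adjusted p = 0.000812). Its means in P1.hMR rats were 96.9 ± 11.4 and 48.4 ± 3.93 TPM (-0.98 ± 0.11, adjusted p = 8.42e-06). Lef1, the transcription factor of hair matrix cells that reads Wnt signals, fell by 0.81 on the log2 scale for WT and by 0.51 for P1.hMR rats (adjusted p = 0.00202 and 0.00483). Nkd1, a cytoplasmic Wnt antagonist, was called lower in P1.hMR rats (-0.70 ± 0.12, adjusted p = 0.000351) and gave -0.21 ± 0.15 in WT (adjusted p = 0.334). Tcf7, another transcription factor of the pathway, gave 0.22 ± 0.06 for WT (adjusted p = 0.0176) and 0.12 ± 0.05 for P1.hMR rats (adjusted p = 0.0646). The list median was -0.21 for WT and -0.43 for P1.hMR rats.

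The R-spondin and LGR list gave no call in either genotype. Lgr4, the widely expressed receptor of the family, averaged 27.1 to 29.8 TPM in the 4 groups and so lay above Lgr5 and Lgr6 in each. Its log2 fold change was -0.05 ± 0.07 for WT and -0.09 ± 0.06 for P1.hMR rats. Rnf43, the ubiquitin ligase that R-spondins silence, averaged 8.92 to 9.91 TPM. Among the ligands Rspo1 averaged 2.9 to 3.69 TPM, and Rspo2, Rspo3 and Rspo4 did not pass the filter on low levels.

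Tp63 was the highest of the set in every group. Its range was 70.45 to 87.46 TPM in Control WT, 72.51 to 77.85 TPM in UVB WT, 75.22 to 82.56 TPM in Control P1.hMR and 64.48 to 78.6 TPM in UVB P1.hMR rats. The groups overlapped throughout. Neither UVB comparison passed the test, with -0.09 ± 0.07 for WT (adjusted p = 0.414, 95% interval -0.23 to 0.06) and -0.13 ± 0.06 for P1.hMR rats (adjusted p = 0.0999, 95% interval -0.247 to -0.002).

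The basal epithelial list, which includes Tp63, gave 0 calls among 9 tested. By the adjusted p alone 3 were higher and 0 lower in WT, and 5 higher and 1 lower in P1.hMR rats. Krt14, the basal layer keratin, averaged 5280 ± 529 TPM in Control WT and 7340 ± 410 TPM in UVB WT rats. Its log2 fold changes were 0.48 ± 0.13 for WT (adjusted p = 0.0175) and 0.50 ± 0.11 for P1.hMR rats (adjusted p = 0.00204), just under the fold threshold. Its partner Krt5 gave -0.01 ± 0.12 and -0.16 ± 0.10. Of 6 proliferation genes 4 were called higher in both genotypes (Ccnb1, Cdk1, Birc5 and Bub1), beside 3.92% and 5.05% of all genes. Mki67 and Top2a were not called. Mki67 gave 0.408 for WT and 0.192 for P1.hMR rats (adjusted p = 0.0703 and 0.251), and Top2a 0.479 and 0.405 (adjusted p = 0.0373 and 0.0201).

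To set the markers against basal genes, their change was measured relative to the mean log2 level of Krt5, Krt14, Itga6, Itgb4 and Col17a1. Krt14, Itga6 and Itgb4 had UVB values above 0 in both genotypes, and Krt5 and Col17a1 below. Col17a1 gave -0.17 ± 0.09 for WT and -0.17 ± 0.08 for P1.hMR rats (adjusted p = 0.201 and 0.0952). The mean of the 5 genes is therefore not a uniform shift of basal genes. That mean was itself higher after UVB, by 0.19 for WT and 0.16 for P1.hMR rats, and the scaling moved the median of all genes to -0.19 and -0.17 and the calls over all genes to 244 higher and 1239 lower for WT (514 and 522 before scaling) and 395 higher and 1447 lower for P1.hMR rats (662 and 748 before). On this scale 4 of 9 markers were called in WT rats, all lower (Gata6, Lrig1, Prdm1 and Sox9), where 11.3% of all genes were called in either direction. In P1.hMR rats 3 were called, all lower (Gata6, Lrig1 and Lgr5), where 14.1% were. Relative to basal genes Gata6 gave -0.98 ± 0.18 for WT and -1.09 ± 0.15 for P1.hMR rats, and Lrig1 gave -0.66 ± 0.10 and -0.70 ± 0.08. Axin2 and Cd34 gave values between 0.04 and 0.16 that did not pass the test. Tp63 gave -0.28 ± 0.12 for WT (adjusted p = 0.104) and -0.28 ± 0.10 for P1.hMR rats (adjusted p = 0.0331, under the fold threshold). Lgr5 in WT rats, and Sox9 and Prdm1 in P1.hMR rats, also passed the adjusted p but not the fold threshold.

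The LRIG and ErbB list, which holds the receptors that LRIG1 restrains, had 6 genes tested. Lrig1 in P1.hMR rats was the only call among them. By the adjusted p alone 4 were lower for WT and 5 for P1.hMR rats, with 0 higher. Of all genes tested 10.3% and 20.6% were lower and 11.2% and 18.5% higher by that measure. Lrig3 gave -0.28 ± 0.06 and -0.34 ± 0.05 (adjusted p = 0.00618 and 0.000121), Erbb3 gave -0.29 ± 0.05 and -0.13 ± 0.04 (adjusted p = 0.00185 and 0.0309), and Egfr gave -0.19 ± 0.07 and -0.40 ± 0.06 (adjusted p = 0.067 and 6.37e-05). Erbb2 gave -0.18 ± 0.05 and -0.29 ± 0.04 (adjusted p = 0.0152 and 4.92e-05), and Lrig2 gave 0.02 ± 0.09 and -0.08 ± 0.07.

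**Figure D4:**
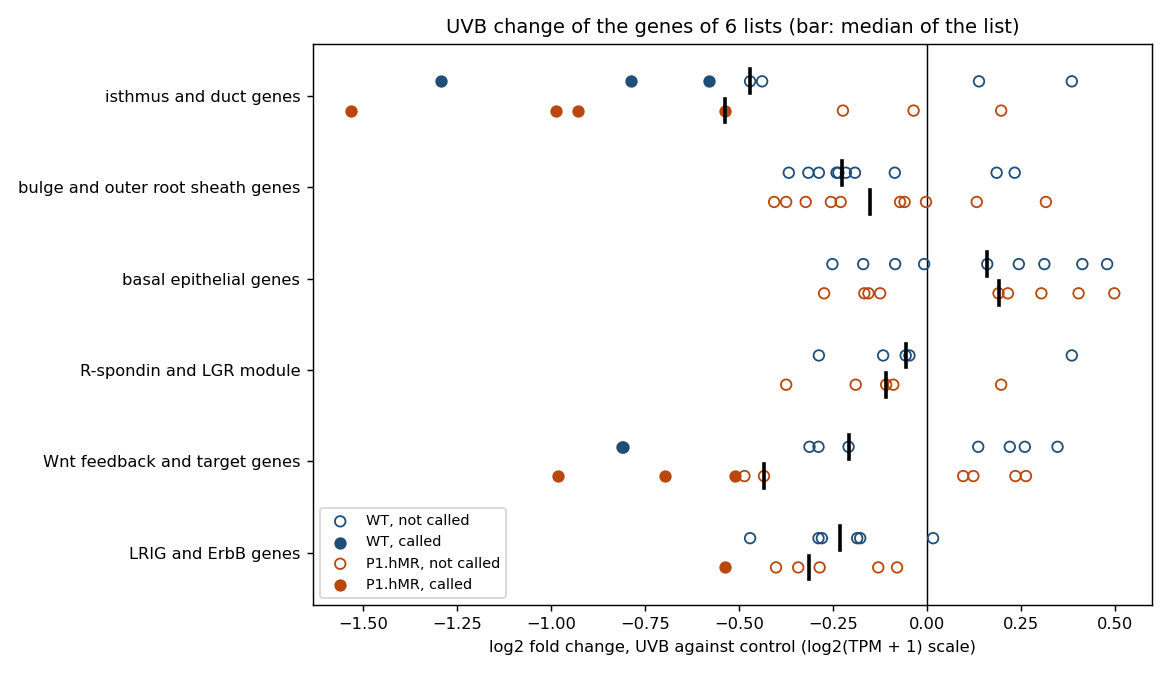
UVB log2 fold change of every tested gene of 6 lists, on the log2(TPM + 1) scale, for WT (blue) and P1.hMR rats (orange). Filled circles are called genes, open circles genes not called, and the black bar is the median of the list. The isthmus and duct list has the lowest medians, -0.47 and -0.54, and the basal epithelial list is the 1 list with both medians above 0. Each of the 6 lists includes 1 or more markers of the set.

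The genotype comparisons asked whether MR overexpression changed these markers. None of the 9 was called between P1.hMR and WT rats under UVB or without it, where 0.0229% and 0.00763% of all genes were called. In neither comparison did limma give a member an unadjusted p below 0.05. Of all 13105 genes 1348 had such a p under UVB and 528 without it. The genes tested included the human NR3C2 transgene itself, at 0 in every WT rat and at 5.31 to 9.31 TPM in P1.hMR rats. The counts of called genes over all genes, 3 and 1, moved with single rats. Without UVB WT rat 3 the comparison under UVB called 51 genes, and with any other rat left out it called 1 to 5. Without Control WT rat 4 the comparison of unexposed rats called 6 genes, and with any other rat left out it called 1. No marker was called in any of these. The groups overlapped for every member in both comparisons, and did not overlap for 5.87% and 1.03% of all genes. The largest differences under UVB were for Prdm1 (0.19 ± 0.11, 95% interval -0.04 to 0.42), Lgr6 (-0.16 ± 0.17, -0.52 to 0.20) and Gata6 (-0.16 ± 0.16, -0.49 to 0.17). Without UVB the differences lay between -0.06 for Sox9 and 0.06 for Cd34. For Tp63 the interval was -0.23 to 0.06 under UVB and -0.17 to 0.08 without it, and for Lrig1 it was -0.21 to 0.14 and -0.13 to 0.20.

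The interaction of genotype and UVB was called for 0 of the 9 members and 0 of all 13105 genes by limma, with 907 genes and 0 members at an unadjusted p below 0.05. Over all genes it was called for 8 without UVB WT rat 3, for 1 without Control WT rat 4 and for 0 with any other rat left out. The difference of responses, P1.hMR minus WT, ranged over the members from -0.19 ± 0.23 for Lgr6 to 0.21 ± 0.15 for Prdm1. For Gata6 it was -0.14 (95% interval -0.59 to 0.30). Each UVB response was measured against its own unexposed group, so a call of Lrig1 that P1.hMR rats have and WT rats lack does not show a difference between genotypes.

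An exact two-sided permutation test over the rats was also run for each gene. With 3 against 4 WT rats this exact test cannot go below p = 0.0571, the value that Lrig1, Gata6, Prdm1, Lgr5, Axin2 and Cd34 reached. With 5 against 5 P1.hMR rats Lrig1, Gata6, Axin2 and Cd34 reached the smallest p possible, 0.00794. Lgr5 and Sox9 gave an exact permutation p of 0.0238, Prdm1 of 0.0317, Tp63 of 0.0476 and Lgr6 of 0.31, before any adjustment.

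Within groups the markers varied largely apart from each other. Likeness was measured by Pearson's r over the 17 rats after group means were subtracted, as a description with no test, and rats share library preparation and tissue make-up. Among the 36 pairs of members, Lgr5 and Axin2 were most alike (r = 0.72), followed by Lrig1 and Cd34 (r = 0.59), and Prdm1 and Gata6 least (r = -0.45). Over all tested genes, those most like Gata6 were Serpinb1a (0.867), Clca5 (0.863) and Apcdd1 (0.861). Those most like Lrig1 were Tmem176b (0.925), Tmem176a (0.919) and Aldh1a2 (0.908). For Lgr5 they were Sinhcaf (0.879), Ptch1 (0.878) and Mex3c (0.868). For Sox9 they were Zfp867, Map4k1 and Lrrc8e, for Prdm1 Ripply3, Stk4 and Wnt5a, and for Lgr6 Cfap53, Ago3 and Hdac4. For Axin2 they were Ube2l6, Olfm1 and Rpgr, for Cd34 Atp10b, Ccn5 and Lpcat2, and for Tp63 Adar, Zfp472 and Ttc3, and these 6 sets had r between 0.809 and 0.89. Each set was picked as the highest r among 13105 genes over 17 rats, so a high r is partly given by the choice. No reference for r under chance was made. Some of the genes were at low levels, with means of 0.992 TPM for Cfap53, 1.45 for Aldh1a2 and 1.77 for Map4k1.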

How the data were processed

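Total RNA from dissected MG of 17 rats was sequenced, and the authors deposited 1 table of TPM values per gene and rat, with 2 decimals. The paper's methods name FastQC, STAR on rn7 and RSEM, whereas the submitters' processing notes list FastQC, Trimmomatic, DRAGEN, Picard and rn7. TPM hold no read counts and the methods give mapped reads only as a range, so the depth of each library is unknown and count models could not be fitted. Summed TPM were 804378 to 840817 per rat. Genes at 1 TPM or more in at least 3 rats (13105) were tested on log2(TPM + 1) with limma 3.58.1 (R 4.3.3), with 1 mean per group, a variance trend and Benjamini-Hochberg adjustment over all genes tested; the script was tested on simulated data. SE and 95% intervals are limma's. The labels do not say that rats of a group came from separate litters or batches. The members, lists and motifs were chosen with earlier results of these data known. Results on 1 gene list and 1 motif are not reported here. Each member was named in every comparison, as were up to 4 called genes per list with the largest changes, other list genes being named as examples, and the 3 genes most like each member. Alternatives covered the constant, filter, scaling, covariates, thresholds, a replicate block and leaving out each rat.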

Additional observations from a re-analysis of the deposited data

Results flagged for a closer look

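Each group of 4 or 5 rats was screened for a rat that stood apart from the rest of its group, in 27 combinations of gene and group. In 1 of them the gap to the nearest rat exceeded Dixon's 95% critical value. Cd34 was 21.98 TPM in Control WT rat 1, below the other 3 Control WT rats at 25.55 to 25.7 TPM, a gap of 0.96 of the group's range. Chance gives about 1 flag in 20 groups. Without this rat the WT log2 fold change of Cd34 was 0.18 (adjusted p = 0.127).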

How the results depend on the processing

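The UVB direction of all 9 markers in both genotypes was the same under every alternative run, and the genotype comparisons and the interaction gave 0 member calls under each. The number of markers called was 1 for WT and 2 for P1.hMR rats. Without a fold threshold it was 5 in each, and at a log2 fold change of 1 it was 0 in each, because the thresholds differ. With a hair shaft keratin covariate the P1.hMR count was 1, and with an endothelial covariate, added after seeing the data, the WT count was 3; the cause was not tested. Leaving out each rat in turn gave 1 to 2 in both genotypes. With Control WT rat 1, UVB WT rat 1 or UVB WT rat 3 left out the WT count was 2, and with Control P1.hMR rat 4 left out the P1.hMR count was 1. Where a group was left with few rats the fit pooled the spread over all groups.

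Over all genes 1036 were called for WT and 1410 for P1.hMR rats. At a mean of at least 5 TPM, with fewer genes tested, 690 and 882 were called, without a fold threshold 2820 and 5123, and at a log2 fold change of 1, 219 and 300. With the inner root sheath covariate 475 were called in WT. Between genotypes under UVB the count of 3 was 1 with a constant of 0.1, with only the groups compared and with the replicate block, and at a mean of at least 5 TPM both genotype comparisons called 0. The NR3C2 transgene averaged under 5 TPM over all rats, so that filter removes it from both comparisons.

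Several genotype differences near 0 changed sign. Without UVB, the Lgr5 difference (0.004) was -0.003 with a constant of 0.1, -0.037 with quantile normalization, -0.02 with sample weights, -0.018 with the inner root sheath and -0.02 with the endothelial covariate, and the Lgr6 difference (0.026) was -0.002 with quantile normalization. With the endothelial covariate the Lrig1 difference was -0.007 without UVB and 0.01 under UVB, and the interaction was 0.017 for Lrig1 and 0.002 for Tp63. Leaving out 1 rat, the differences without UVB ran from -0.019 to 0.082 for Lrig1, -0.064 to 0.092 for Lgr5, -0.057 to 0.122 for Lgr6, -0.107 to 0.003 for Sox9, -0.081 to 0.035 for Prdm1, -0.177 to 0.111 for Gata6 and -0.077 to 0.043 for Axin2. Under UVB they ran from -0.095 to 0.054 for Lrig1, -0.156 to 0.005 for Lgr5 and -0.007 to 0.175 for Sox9, and the interaction from -0.127 to 0.022 for Lrig1, -0.176 to 0.001 for Lgr5, -0.271 to 0.016 for Gata6 and -0.08 to 0.023 for Tp63. The cause was not tested.

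The deviations of rats with the same number had r between -0.187 and 0.235. Rats with different numbers were not set beside them, so this cannot settle whether the numbers pair rats. A fit with the replicate block gave 1 marker called for WT and 2 for P1.hMR rats, and 0 in the genotype comparisons and the interaction. Relative to basal genes the replicate block gave 5 and 3. With the replicate block the differences without UVB were -0.004 for Lgr5, -0.022 for Lgr6 and 0.018 for Gata6. As the depth of each library is unknown, the precision of low genes such as Lgr5 and Lgr6 rests on the spread between rats alone.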

Other observations

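The ratio of Axin2 to Lgr5 TPM, chosen after its values were seen and given without a test, was 3.30 to 4.25 in Control WT and 5.74 to 7.27 in UVB WT rats, and 2.97 to 4.44 in Control P1.hMR and 5.77 to 8.0 in UVB P1.hMR rats. The ranges did not overlap in either genotype, although Lgr5 alone overlapped in P1.hMR rats. The ratio of Lgr6 to Lgr5 averaged 1.34 ± 0.371 in Control WT, 2.59 ± 0.91 in UVB WT, 1.37 ± 0.364 in Control P1.hMR and 2.43 ± 0.536 in UVB P1.hMR rats. Its range was 0.958 to 1.81 in Control WT and 2.06 to 3.64 in UVB WT rats, without overlap. In P1.hMR rats the ranges, 0.894 to 1.91 and 1.82 to 3.21, overlapped. The mean Lgr6 level was above that of Lgr5 in each group, but the lowest rat of each unexposed group had less Lgr6 than Lgr5. The ratio of Gata6 to Tp63, a duct factor against a basal factor, was 0.146 to 0.232 in Control WT and 0.101 to 0.118 in UVB WT rats, and 0.145 to 0.232 and 0.0928 to 0.113 in the P1.hMR groups.

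Some macrophage and melanocyte genes were also called after UVB. Of 6 macrophage genes 3 were called higher in each genotype (Cd163, C1qa and C1qb), beside 3.92% and 5.05% of all genes. The others were not called. Cd68 gave -0.36 for WT and -0.29 for P1.hMR rats, Adgre1 0.06 and -0.19, and Csf1r 0.02 and -0.12. Of 4 melanocyte genes 3 were called lower for WT and 0 for P1.hMR rats, beside 3.98% and 5.71% of all genes. The difference between genotypes was not called. B and plasma cell genes summed to at most 3.0 TPM in any rat.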
